A study of Mus musculus with 48 samples.

Results

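The effect of diet on liver mRNA was examined over both durations of feeding at once, as the level in all H-P/C-HF mice minus that in all L-P/C-HF mice with the duration as a separate term, and with attention to genes whose diet effect held at each duration. The comparison used 47 of the 48 arrays, 1 per mouse, from male C57BL/6J mice. At 2-d, 12 mice were on L-P/C-HF and 11 on H-P/C-HF, and at 4-wk 12 were on each diet. All mice had first been made obese on the L-P/C-HF diet, a high-fat diet with a low ratio of protein to carbohydrate, and had been chosen for this experiment for their high blood glucose in a tolerance test. The L-P/C-HF groups stayed on it, while the H-P/C-HF groups were switched to a diet of equal fat content in which casein protein replaced part of the carbohydrate. The labels call the diets HFHC and HPHC, and the one whose name holds high protein, HPHC, is read here as the H-P/C-HF diet. The 4-wk mice were also older and were killed on another day, so that duration, age and day cannot be told apart, but each duration holds both diets.

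When a meal brings more amino acids than are needed to make protein, the liver takes them up, removes their nitrogen for the urea cycle and burns the carbon or turns it into glucose. The endoplasmic reticulum (ER) of the hepatocyte folds the proteins that the liver secretes, and its chaperones and oxidases are induced together when folding falls behind. The liver also disposes of cholesterol by making bile acids, a pathway that CYP7A1 limits.

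Levels are log2 values of the authors' normalized arrays, so that a difference of 1 is a doubling. Array medians lay between 6.73 and 6.91. One array from the 2-d H-P/C-HF group, B25, was an outlier in the quality tests of the study and was left out, and its values are given beside results that it touches. A01 and A09, from the 2-d L-P/C-HF group, and A24, from that of 4-wk, also correlated less well with the other arrays. All 14 measured hepatocyte markers lay above the array median. The RNA quality measure, the 3' minus 5' signal of control probe sets, had a mean of 0.478 on L-P/C-HF and 0.477 on H-P/C-HF at 2-d, and of 0.244 and 0.273 at 4-wk. In whole liver, fewer cells of a type and less RNA per cell cannot be told apart. The replicates are separate mice.

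Of 45037 probe sets, 20 changed with diet (limma, two-sided, Benjamini-Hochberg adjusted p under 0.05), which is 0.0444% of those tested. Of these, 10 were up-regulated and 10 were down-regulated on H-P/C-HF feeding, or 0.0222% in each direction. Without adjustment, 908 were higher and 1178 lower at p under 0.05. These 2086 are fewer than the share of 0.05 expected if diet had no effect. Genes named below at that unadjusted level are therefore a description. The changes were small, from 1.15 to 1.82 fold. An effect was said to hold at both durations if it had the same sign at 2-d and at 4-wk with an unadjusted p under 0.05 at each, and this was so for 17 of the 20 probe sets (0.0377% of those tested), 8 higher and 9 lower. The values at each duration come from the same mice as the pooled values and are a description, not a second test. The 20 probe sets carry 13 genes with 1 symbol, namely Slc7a2, Agxt, Oat, Ivd, Cth, Aldh1l1 and Cyp7a1, which rose, and Ero1b, Plin2, Serpina12, Cyp2d40, Ces2g and Col27a1, which fell. A further 4 probe sets have several symbols or none, and are given by their number.

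**Figure D1:**
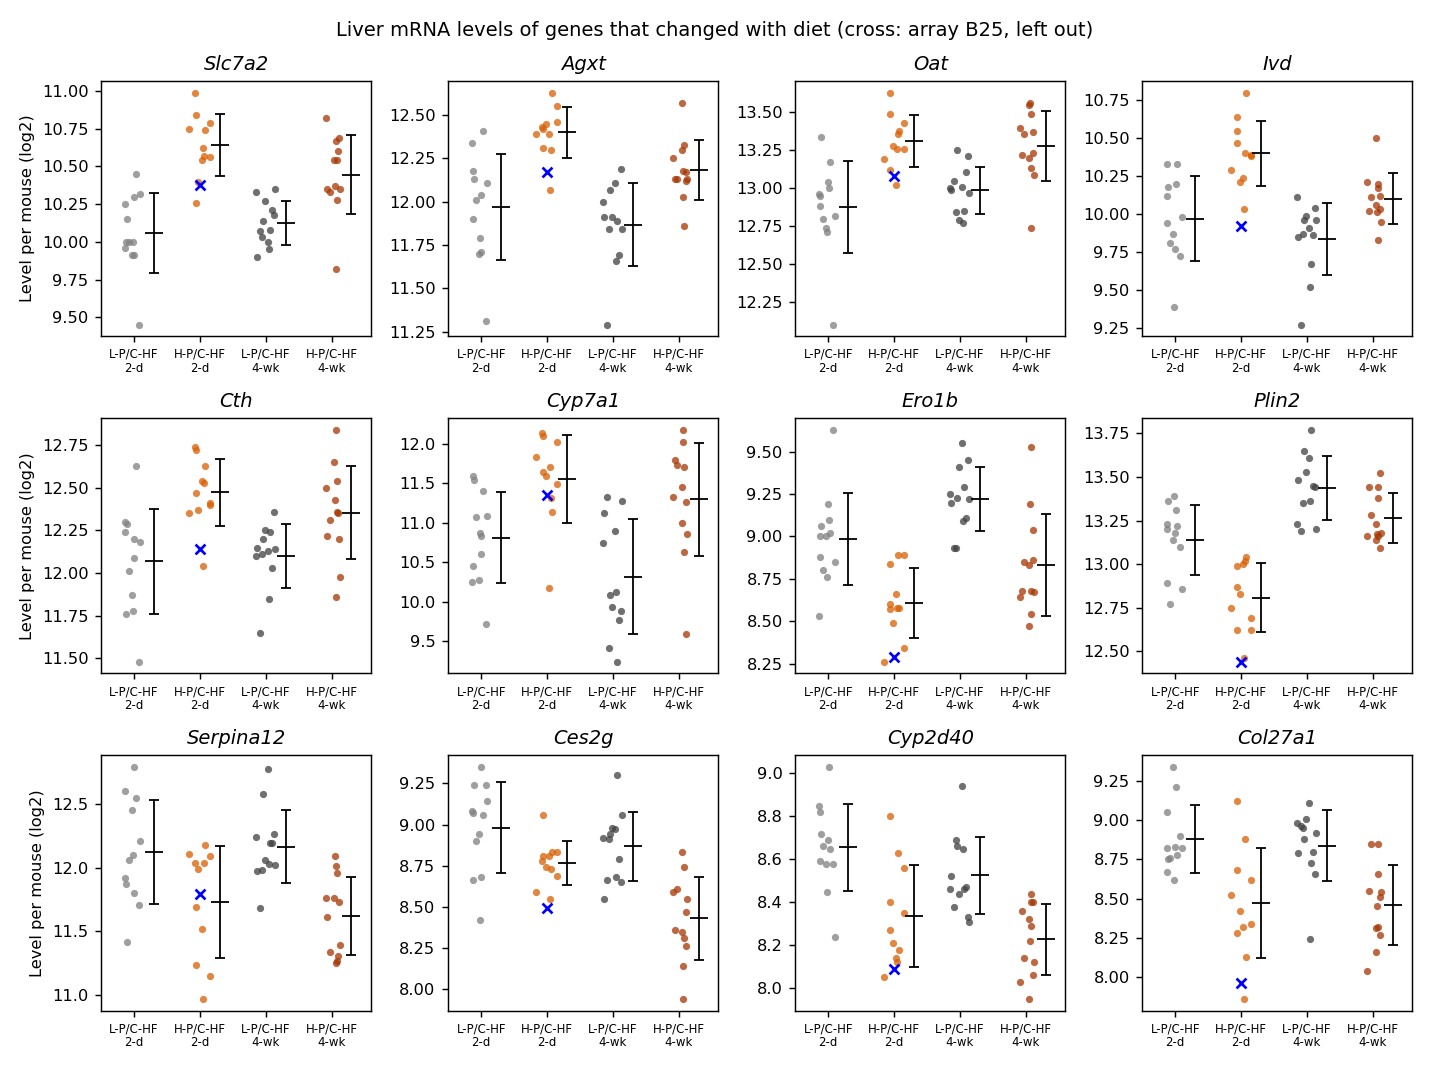
Level of 12 genes in each mouse (log2) by diet and duration, with the mean and SD of each group beside the points (12, 11, 12 and 12 mice) and the array B25 as a cross. The H-P/C-HF mice lie higher in the first 6 panels and lower in the last 6 at both durations, and in every panel the ranges of the diet groups overlap at both durations.

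The strongest change was in Slc7a2, which encodes a carrier of arginine, lysine and ornithine in the hepatocyte membrane. On the probe set with the smallest p, the lowest, median and highest levels were 9.45, 10.00 and 10.45 in L-P/C-HF mice and 10.26, 10.62 and 10.99 in H-P/C-HF mice at 2-d. At 4-wk they were 9.90, 10.11 and 10.35 against 9.82, 10.46 and 10.82. At each duration 11 of the switched mice (of 11 and of 12) exceeded the median for L-P/C-HF, although the ranges overlapped. The pooled difference was 0.45 (standard error 0.07, adjusted p = 5.48e-04 from limma), or 1.37 fold, made up of 0.58 at 2-d and 0.32 at 4-wk. The brightest Slc7a2 probe set also rose (0.38, adjusted p = 0.0449 from limma), but its difference was 0.58 at 2-d and 0.19 at 4-wk, and it did not hold at 4-wk. B25 lay at 11.79 on that probe set, and with B25 included its adjusted p was 0.170. The other Slc7a2 probe sets differed by 0.47 (adjusted p = 0.0603) and by 0.27 (unadjusted p = 0.0726) in the limma fit.

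Agxt and Oat, which move amino groups from alanine and from ornithine, rose by similar amounts. Agxt levels ran from 11.31 through a median of 12.03 to 12.41 in L-P/C-HF mice and from 12.07 through 12.42 to 12.63 in H-P/C-HF mice at 2-d. They ran from 11.29 through 11.90 to 12.19 and from 11.86 through 12.15 to 12.57 at 4-wk. Thus 22 of 23 switched mice exceeded the median for L-P/C-HF at their duration, and the difference was 0.37 (standard error 0.06, adjusted p = 0.00595 from limma). For Oat the levels were 12.10, 12.91 and 13.34 against 13.02, 13.28 and 13.63 at 2-d, and 12.77, 12.99 and 13.25 against 12.74, 13.29 and 13.56 at 4-wk. Again 22 of 23 mice lay above, with a difference of 0.36 (standard error 0.06, adjusted p = 0.00631 from limma). Both genes passed in each of the 47 fits that left out 1 array.

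Ivd, an enzyme of leucine breakdown, and Cth, which releases cysteine from cystathionine, rose as well. The 2-d means of Ivd were 9.97 ± 0.28 (SD, n = 12) on L-P/C-HF and 10.40 ± 0.21 (SD, n = 11) after the switch, and those of 4-wk were 9.83 ± 0.24 and 10.10 ± 0.17 (SD, n = 12 each) at 4-wk, a difference of 0.35 (adjusted p = 0.0120 from limma). B25 was at 9.92 for this gene, near the L-P/C-HF mean. A brighter Ivd probe set differed by 0.21 and did not pass (adjusted p = 0.0968 from limma). Cth was at 12.07 ± 0.31 and 12.47 ± 0.20 at 2-d, and at 12.10 ± 0.19 and 12.35 ± 0.27 at 4-wk, a difference of 0.33 (adjusted p = 0.0476 from limma, and 0.0682 with B25 included, which was at 12.14). Cth is close to the threshold, and passed in 12 of the 47 fits that left out 1 array. Aldh1l1, a folate enzyme that returns formyl groups as carbon dioxide, rose by 0.21 over both durations (adjusted p = 0.0314 from limma), with 0.31 at 2-d and 0.10 at 4-wk, and did not hold at 4-wk. Its adjusted p was 0.0682 with B25 included, which lay at 13.17, below all H-P/C-HF mice of 2-d.

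In the list of amino acid catabolism 46 of 52 measured genes had a difference above 0, with a median of 0.10, against 45.8% positive and a median of -0.01 over all 18193 genes. In this list 4 rose (Agxt, Oat, Aldh1l1 and Cth, on the brightest probe set of each gene, against 0.066% called over all genes), 21 were higher and 2 lower by unadjusted p under 0.05, where 2% and 3.08% of all genes were. The list was chosen with results of these data known, so its direction is not independent evidence. The median was 0.16 at 2-d and 0.05 at 4-wk (rounded), and 36 of the 52 genes were positive at both. Got1, the cytosolic aspartate aminotransferase, differed by 0.48 and missed the threshold (adjusted p = 0.0563 from limma). Next came Aass of lysine breakdown (0.21), Cbs, which acts just before Cth (0.21), Hgd of tyrosine breakdown (0.19) and Dbt of the branched-chain keto acid dehydrogenase (0.25), none of which passed. Without A01, A09 and A24 the list had 41 positive members and 16 higher at an unadjusted p under 0.05.

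Csad ran the other way. It makes hypotaurine from cysteine sulfinate, and so taurine, and it belongs to the same list. Its levels were 8.72, 9.24 and 10.99 (lowest, median and highest) in L-P/C-HF mice and 7.56, 8.27 and 8.57 in H-P/C-HF mice at 2-d, where the groups did not overlap. At 4-wk they were 9.30, 9.89 and 11.63 against 8.44, 9.66 and 11.66, where they overlapped almost fully. The pooled difference was -0.70 (unadjusted p = 7.88e-04, adjusted p = 0.362 from limma), with -1.20 at 2-d and -0.23 at 4-wk, so that it did not hold.

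**Figure D2:**
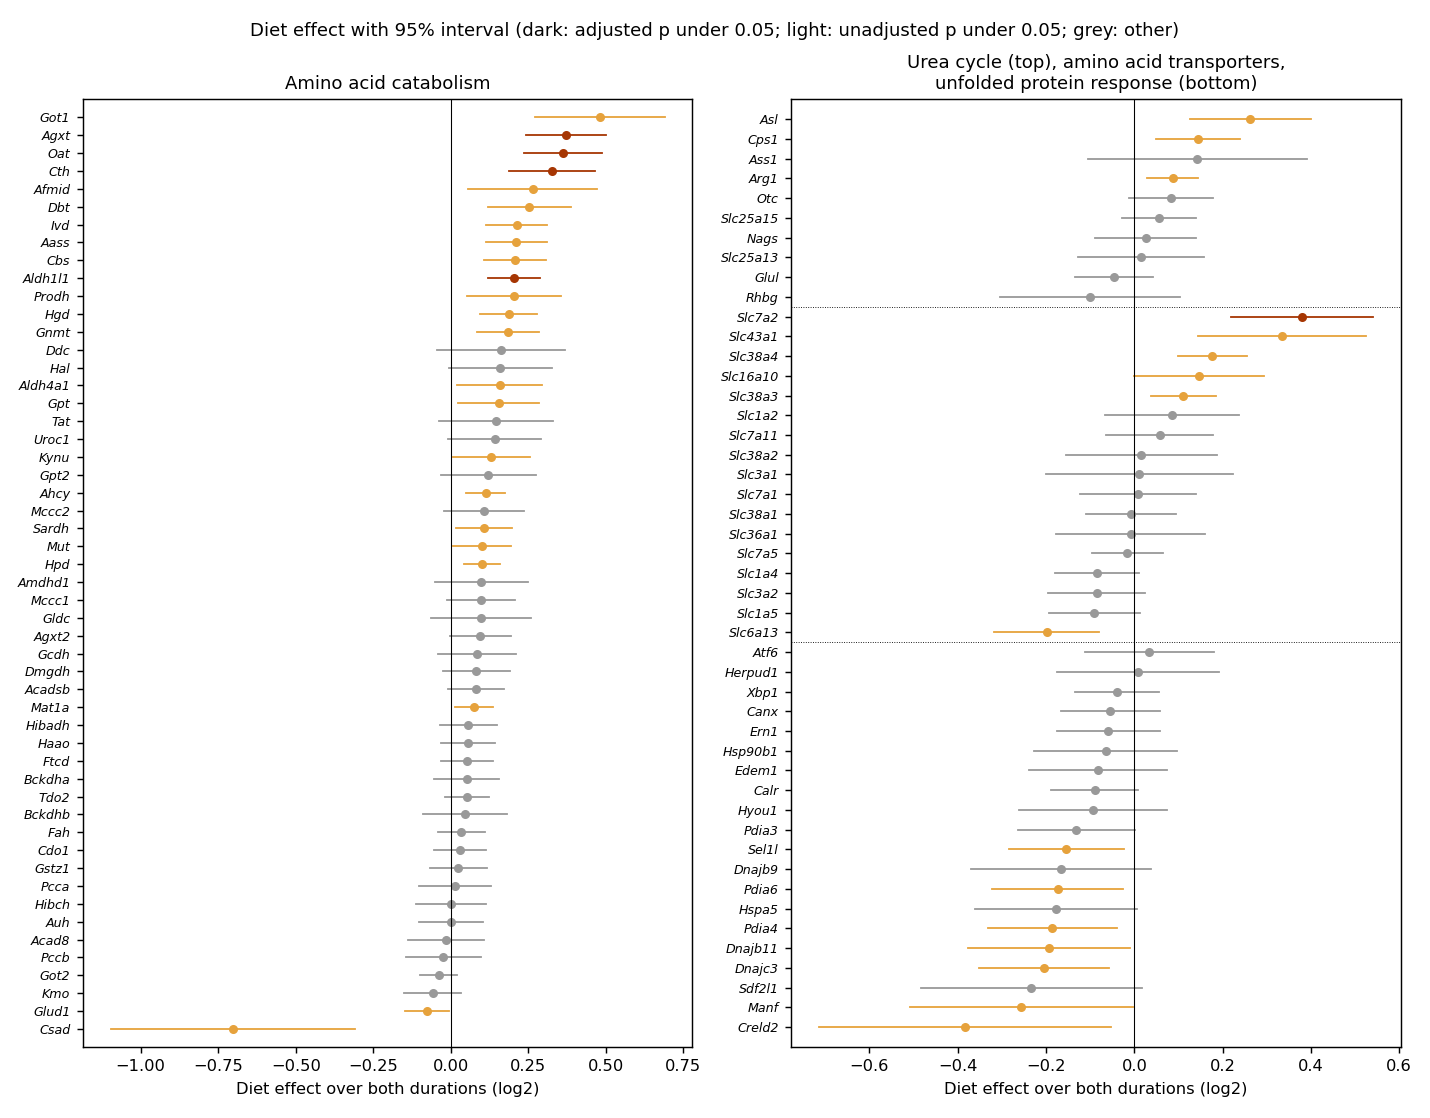
Diet effect over both durations (log2, positive where the H-P/C-HF mice were higher) with its 95% interval for each measured member of 4 gene lists, on the brightest probe set. Of the 52 catabolic genes on the left 46 lie right of 0, and of the 20 genes of the unfolded protein response at the lower right 18 lie left of 0.

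The urea cycle and the carriers of amino acids were mixed. Probe sets with several symbols, such as 1416239_at, which rose, enter no list. On probe sets with 1 symbol, 8 of 10 measured genes of the urea cycle and ammonia handling had a positive difference (median 0.07). Of these 10 genes, 0 passed over all genes in limma and 3 were higher at an unadjusted p under 0.05 (2% of all genes were). These were Asl, which splits argininosuccinate (0.26), Cps1, the entry step of the cycle (0.14), and Arg1, the arginase (0.09). Of 17 amino acid carriers 10 were positive (median 0.01), 1 rose, namely Slc7a2, and 5 were higher and 1 lower by unadjusted p under 0.05. Over all genes 0.066% were called, and 2% were higher and 3.08% lower at that unadjusted level. Slc38a4, a carrier of neutral amino acids, was at 13.05 ± 0.20 and 13.31 ± 0.09 at 2-d and at 13.26 ± 0.09 and 13.35 ± 0.09 at 4-wk, a difference of 0.18 that just missed the threshold (adjusted p = 0.0675 from limma). Slc43a1, a carrier of branched-chain and other neutral amino acids, differed by 0.33, and Slc6a13, a carrier of taurine and GABA, by -0.20. In 23 measured ATF4 targets, which answer a shortage of amino acids, 14 had a negative difference. At an unadjusted p under 0.05, 2 were higher (2% of all genes were), Vldlr (0.18) and Trib3 (0.17).

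The largest change among the probe sets that passed was in Cyp7a1. Its lowest, median and highest levels were 9.72, 10.86 and 11.60 in L-P/C-HF mice and 10.18, 11.64 and 12.14 in H-P/C-HF mice at 2-d. At 4-wk they were 9.24, 10.11 and 11.33 against 9.59, 11.39 and 12.18. The spread between mice was wide, the groups overlapped at both durations, and 21 of 23 switched mice exceeded the median for L-P/C-HF. The difference was 0.87 (standard error 0.18, adjusted p = 0.0314 from limma), or 1.82 fold, with 0.75 at 2-d and 0.98 at 4-wk, and the interval of the difference between durations ran from -0.48 to 0.94. The other Cyp7a1 probe set gave 0.97 (adjusted p = 0.173). The call was lost in 15 of the 47 fits that left out 1 array, with an adjusted p of at most 0.0600, without B30.

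Among the other genes of bile acid synthesis no further one passed. Nr0b2 encodes SHP, a repressor of Cyp7a1, and it was at 9.85 ± 0.29 and 9.61 ± 0.39 at 2-d and at 9.89 ± 0.30 and 9.45 ± 0.41 at 4-wk. Its difference was -0.34 (unadjusted p = 0.00101, adjusted p = 0.409 from limma). Cyp8b1, which makes cholic acid, differed by 0.33 (0.12 at 2-d and 0.54 at 4-wk) and Amacr, of side-chain shortening, by -0.09. Of the 21 genes of the list 11 were positive and 10 negative, with a median of 0.01 that turned sign with B25 included, without A01, A09 and A24 and with array weights. Srebf2, which drives the genes of cholesterol synthesis and uptake, differed by -0.14 (adjusted p = 0.409 from limma), with 20 of 23 mice under the median for L-P/C-HF. The genes of cholesterol biosynthesis cannot be described by a pooled effect. Of 17 measured members 15 were negative at 2-d and 17 positive at 4-wk, so that 2 had the same sign at both durations. The pooled median was -0.02, with -0.24 at 2-d and 0.36 at 4-wk. The 2 members higher at an unadjusted p under 0.05 were Tm7sf2, a sterol reductase (0.04 at 2-d, 0.39 at 4-wk), and Ebp, a sterol isomerase (0.13 and 0.12). Over all genes 2% were higher at that level.

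**Figure D3:**
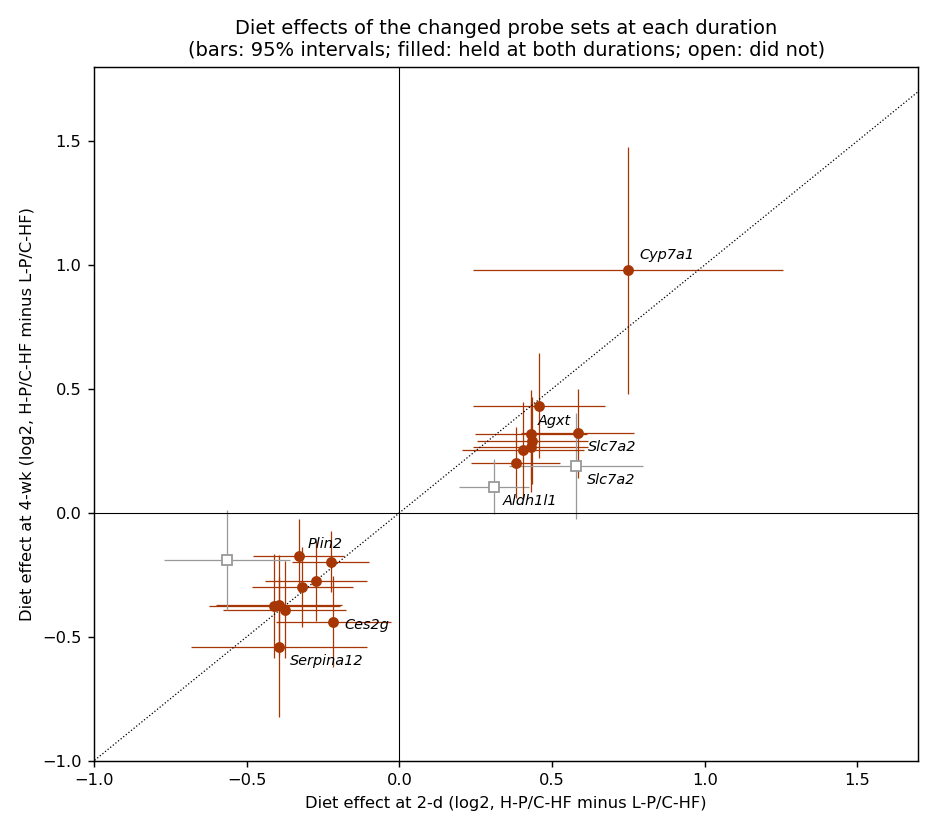
Diet effect at 2-d (x axis) and at 4-wk (y axis) in log2 units for the 20 probe sets that changed over both durations, with 95% intervals and a dotted line where both are equal. All lie in the same quadrant as their pooled effect, and the 3 open symbols, 1 probe set of Slc7a2, 1 of Aldh1l1 and 1436168_at, did not hold at 4-wk.

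Ero1b encodes an oxidase of the ER that supplies disulfide bonds to newly made proteins, and it fell on H-P/C-HF feeding by the same amount at both durations. On the probe set with the smaller p the lowest, median and highest levels were 8.53, 9.0 and 9.63 in L-P/C-HF mice and 8.26, 8.58 and 8.89 in H-P/C-HF mice at 2-d. At 4-wk they were 8.93, 9.22 and 9.55 against 8.47, 8.76 and 9.53. Hence 22 of 23 switched mice were under the median for L-P/C-HF, and 9 of 12 lay below the whole L-P/C-HF range at 4-wk. The difference was -0.38 (standard error 0.07, adjusted p = 0.00879 from limma), with -0.38 at 2-d and -0.39 at 4-wk. A brighter probe set gave -0.38 as well (adjusted p = 0.0105 from limma), while the dimmest gave -0.01 at a mean level of 6.75. B25 was at 8.29, and both probe sets passed in all 47 fits that left out 1 array.

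Genes of the unfolded protein response, the program that Ero1b is often grouped with, leaned the same way without any passing alone. Of 20 measured members 18 had a negative difference, the median was -0.14, 0 of them passed the limma test over all genes, and 7 were lower and 0 higher at an unadjusted p under 0.05. Over all genes 45.8% were positive, and 3.08% were lower and 2% higher at that level. The members share the same arrays, so their count does not stand for as many separate observations. The list median was -0.15 at 2-d and -0.12 at 4-wk, and 18 members were negative at both. The 7 were Dnajc3 (-0.20), Pdia4 (-0.19), Sel1l (-0.15), Pdia6 (-0.17), Creld2 (-0.38), Dnajb11 (-0.19) and Manf (-0.26), most of them chaperones or disulfide isomerases of the ER. Hspa5, the major ER chaperone, differed by -0.18 (unadjusted p = 0.0567 from limma). One L-P/C-HF mouse of 2-d, A09, had a list mean of 11.84, far above the group median of 10.88. Without A01, A09 and A24 the list median was -0.11, 19 members were negative and 8 were lower at an unadjusted p under 0.05.

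The promoters of this group were searched for the ER stress element, CCAAT and CCACG with 9 bases of any kind between them. It was looked for on both strands of the 250 bases before the start, a search added after the values were seen. In RefSeq promoters (GRCm38.p6) it was found in 37 of 32851, or 0.113%, and in 7 of the 17 members of the unfolded protein response list with a promoter in the table. Among the called genes 10 had a promoter there, and Ero1b was the one with a match. The whole stretch before the Ero1b start is shown, and for 4 members of the list the element with the bases around it. Capitals mark the fixed letters of the element, which in Ero1b and Creld2 lies on the opposite strand.
Ero1b, chr13:12565633-12565882, + strand: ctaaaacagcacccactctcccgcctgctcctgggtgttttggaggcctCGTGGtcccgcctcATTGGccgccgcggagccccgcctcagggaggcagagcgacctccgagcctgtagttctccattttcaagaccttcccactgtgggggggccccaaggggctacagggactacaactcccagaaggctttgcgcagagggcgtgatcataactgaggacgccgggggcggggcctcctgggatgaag
Dnajc3, chr14:118937817-118937855, + strand: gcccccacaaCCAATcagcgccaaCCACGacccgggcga
Pdia6, chr12:17266481-17266519, + strand: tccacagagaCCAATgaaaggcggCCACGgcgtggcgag
Creld2, chr15:88819510-88819548, + strand: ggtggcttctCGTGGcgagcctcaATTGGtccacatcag
Hspa5, chr2:34772015-34772053, + strand: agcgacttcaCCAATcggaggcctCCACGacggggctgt
The element begins 201 bases before the start in Ero1b, 105 in Dnajc3, 98 in Pdia6, 126 in Creld2 and 65 in Hspa5. Pdia4, Sel1l and Dnajb11 had no match in this window, so 3 of the 6 members with a promoter and an unadjusted p under 0.05 had one. Calr, Canx and Hsp90b1, not shown, also had a match and differed less (-0.09, -0.05 and -0.06, unadjusted p = 0.0731, 0.335 and 0.429 from limma). The share of matches in the list describes its promoters and not the diet effect. A match describes the letters and not binding of a factor. A further 4 motifs were searched in the same 10 promoters, with 0 matches for each. They were TGATGNAA, the core of amino acid response elements (3.45% of all promoters hold it), CACGTG, the E-box (6.02%), TCANNCCAC, a sterol regulatory element (3.52%), and TGACGTCA, the cyclic AMP response element (1.55%).

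Ero1b and the unfolded protein response also varied together from mouse to mouse within the groups. After the mean of each of the 4 groups was taken away, Ero1b and the mean over the list had Pearson's r = 0.66 and Spearman's rho = 0.57 over 47 mice (permutation p = 1e-05, the smallest that 100000 resamples within groups can give, and 9e-05; adjusted p = 4e-05 and 1.8e-04 over 4 relations). Without B47 and A09, the 2 mice farthest from the median of Ero1b, r was 0.53. Within groups r was 0.72 on L-P/C-HF and 0.32 on H-P/C-HF at 2-d, and 0.84 and 0.71 at 4-wk. The 4 relations were chosen after the values had been seen, and both measures of a mouse come from 1 array. Slc7a2 and the mean over amino acid catabolism gave r = 0.62 and rho = 0.58 (permutation p = 3e-05 and 6e-05, adjusted p = 6e-05 and 1.8e-04), 0.49 without B40 and A09, and 0.80, 0.52, 0.66 and 0.42 within the groups in the same order. For Agxt and Oat r was 0.47 and rho 0.36 (permutation p = 0.00349 and 0.0186, adjusted p = 0.00465 and 0.0248), and r was 0.36 without A09 and A24. Within the groups r was 0.74 in L-P/C-HF mice of 2-d, to which A09 belongs, 0.27 in those of 4-wk, to which A24 belongs, and -0.00 and 0.33 in H-P/C-HF mice of 2-d and 4-wk. Cyp7a1 and Nr0b2 gave r = -0.27 and rho = -0.26 (permutation p = 0.0737 and 0.0772, which are also the adjusted values), and r = -0.20 without B45 and B27. Within groups r was 0.10 and 0.21 at 2-d and -0.42 and -0.72 at 4-wk.

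**Figure D4:**
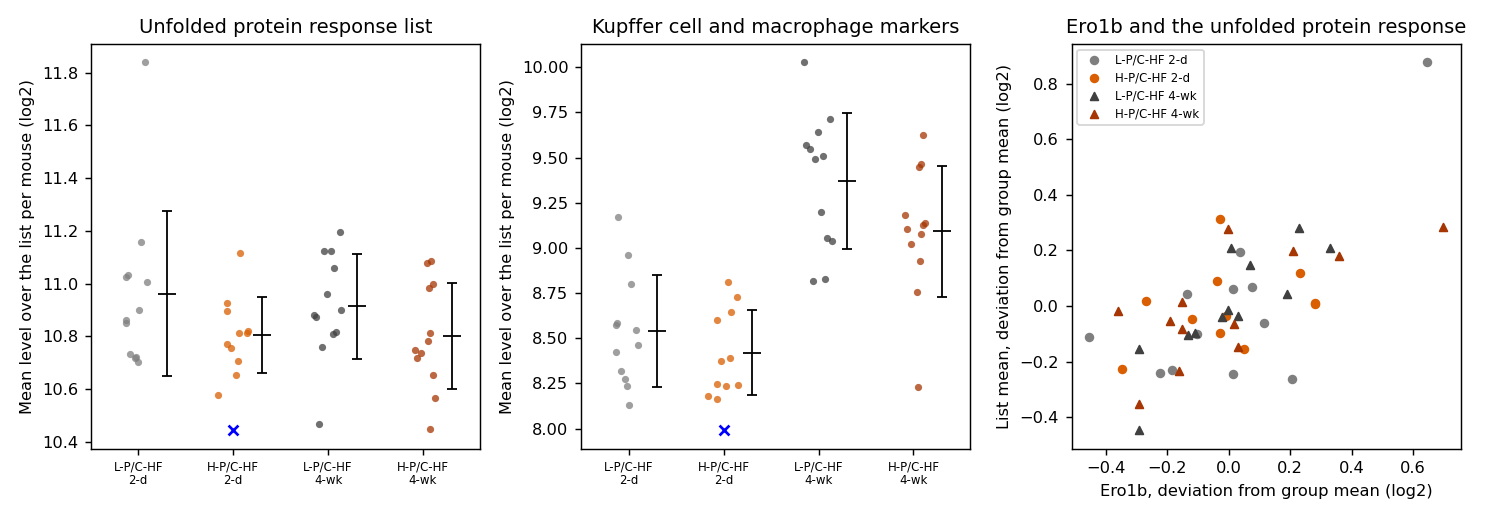
Mean level (log2) over the unfolded protein response list and over the macrophage markers in each mouse, with the mean and SD of each group and B25 as a cross, and the deviation of Ero1b and of the list mean from the group means in 47 mice. The point at the upper right of the last panel is A09, and r was 0.53 without it and B47.

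Plin2 coats lipid droplets in the hepatocyte, and its level rises and falls with their fat. It ran from 12.77 through 13.19 to 13.39 in L-P/C-HF mice and from 12.46 through 12.83 to 13.04 in H-P/C-HF mice at 2-d. At 4-wk it ran from 13.19 through 13.45 to 13.77 and from 13.09 through 13.21 to 13.52. It fell by 0.25 on the log2 scale with diet (standard error 0.05, adjusted p = 0.0449 from limma), with 22 of 23 mice under the median for L-P/C-HF, while it was 0.38 higher at 4-wk than at 2-d over both diets (adjusted p = 2.32e-07 from limma). B25 was at 12.44, lower than any other mouse, and the call held in 16 of the 47 fits that left out 1 array. Plin2 was the one of 29 measured PPARA targets that changed, and 25 of them had a negative difference (median -0.05). At an unadjusted p under 0.05, 4 were lower and 0 higher, where 3.08% and 2% of all genes were. The 4 were Plin2, the peroxisomal Hsdl2 (-0.18) and Pex11a (-0.20) and the pantetheinase Vnn1 (-0.25).

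Of 21 genes of glycolysis and the response to carbohydrate 15 were negative (median -0.05) and 0 passed over all genes in limma. The 2 that were lower at an unadjusted p under 0.05 (3.08% of all genes were) both act on fructose, Khk (-0.19, 22 of 23 mice under the median for L-P/C-HF) and Tkfc (-0.23). Gpd1, which makes the glycerol backbone of triglycerides, differed by -0.30 and came close to the threshold (adjusted p = 0.0968 from limma). In its list, gluconeogenesis, 8 of 14 members were positive, with 8 at 2-d and 4 at 4-wk. The pooled median, 0.02, turned sign with B25 included, without A01, A09 and A24 and with array weights. At an unadjusted p under 0.05, Ppargc1a was higher (0.14) and Gpd1 and Pcx (-0.12) were lower, where 2% and 3.08% of all genes were. G6pc, the last step of glucose output (-0.15, interval -0.37 to 0.07), and Pck1, an earlier step (0.03, interval -0.12 to 0.18), did not pass. Of 26 lipogenic genes 17 were negative (median -0.05) and 0 passed. At 2-d 18 were negative (median -0.07) and at 4-wk 13 were (median -0.0004), so the lean did not hold. Pooled, 4 were lower and 2 higher at an unadjusted p under 0.05 (3.08% and 2% of all genes were). Among them were Agpat2 (-0.16), Me1 (-0.29, with -0.51 at 2-d and -0.08 at 4-wk), Elovl2 (0.17) and Acaca (-0.20).

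The other 4 down-regulated genes have no common pathway among the lists. Serpina12 encodes vaspin, a serpin secreted by fat and liver, and was at 12.12 ± 0.41 (SD, n = 12) and 11.73 ± 0.44 (SD, n = 11) at 2-d and at 12.16 ± 0.29 and 11.62 ± 0.31 (SD, n = 12 each) at 4-wk. It fell by 0.47 on the log2 scale (adjusted p = 0.0476 from limma), was close to the threshold, and passed in 11 of the 47 fits that left out 1 array. Cyp2d40, a cytochrome P450 of the 2D family, whose close relatives may share its probes, ran from 8.24 through 8.65 to 9.03 and from 8.05 through 8.27 to 8.80 at 2-d, and from 8.31 through 8.46 to 8.94 and from 7.95 through 8.26 to 8.44 at 4-wk. It fell by 0.31 on the log2 scale (adjusted p = 0.0105 from limma), and at 4-wk all 12 switched mice were under the median for L-P/C-HF. Ces2g, a carboxylesterase of the ER, was the gene in which all 23 switched mice were under the median for L-P/C-HF. It was at 8.98 ± 0.28 and 8.77 ± 0.14 at 2-d and at 8.87 ± 0.21 and 8.43 ± 0.25 at 4-wk, and fell by 0.33 on the log2 scale (adjusted p = 0.0314 from limma). That call was lost without any 1 of A01, A12, A15, B34, B39, B42 and B44, with an adjusted p of at most 0.0546.

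Col27a1, a fibrillar collagen, fell on both of its probe sets, by 0.39 (adjusted p = 0.0120 from limma) and by 0.27 on the log2 scale (adjusted p = 0.0445 from limma). On the first it ran from 8.62 through 8.82 to 9.34 and from 7.86 through 8.42 to 9.12 at 2-d, and from 8.24 through 8.90 to 9.11 and from 8.04 through 8.48 to 8.85 at 4-wk. At 4-wk all 12 switched mice were under the median for L-P/C-HF, and B25, at 7.96, lay near the lowest mouse. In the markers of stellate cells and fibroblasts 12 of 15 were negative (median -0.04), while Col1a1 and Timp1 lay under the array median. Pdgfrb (-0.15) and Col3a1 (-0.24) were lower at an unadjusted p under 0.05 (3.08% of all genes were). Unlike Col27a1, the list did not hold: at 2-d 8 of the 15 were positive (median 0.01), and at 4-wk 13 were negative (median -0.10). The part of these cells in the Col27a1 result was not tested.

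Of the probe sets without a single symbol, 1435245_at rose by 0.44 (adjusted p = 0.00498 from limma) with 0.46 at 2-d and 0.43 at 4-wk, and 1416239_at, which carries 2 symbols, rose by 0.29 (adjusted p = 0.00879 from limma). On the latter 10 of 11 switched mice at 2-d and 11 of 12 at 4-wk exceeded the whole range for L-P/C-HF at their duration. The probe set 1448561_at fell by 0.21 on the log2 scale (adjusted p = 0.0379 from limma). Its mean level of 6.68 lay under the lowest array median of 6.73, and it passed in 26 of the 47 fits that left out 1 array. The probe set 1436168_at, with 2 symbols, fell by 0.37 (adjusted p = 0.0314 from limma), but by 0.57 at 2-d and 0.19 at 4-wk, and it did not hold. B25 was at 9.20 on 1436168_at, lower than every other mouse.

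Markers of Kupffer cells, the resident macrophages of the liver, were the list with the lowest median. All 22 measured markers had a negative difference (45.8% of all genes were positive), and the median was -0.23. In the limma fit 0 of them passed over all genes, and 11 were lower at an unadjusted p under 0.05 (3.08% of all genes were). The 4 with the smallest p were Aif1 (-0.32), a marker that lay under the array median, Csf1r, the receptor that keeps macrophages alive (-0.23), Adgre1, which encodes F4/80 (-0.25), and Marco, a scavenger receptor (-0.36). The lowest, median and highest list mean was 8.13, 8.51 and 9.17 in L-P/C-HF mice and 8.17, 8.37 and 8.81 in H-P/C-HF mice at 2-d, and 8.82, 9.50 and 10.03 against 8.23, 9.12 and 9.63 at 4-wk. The groups overlapped at both durations, and the median difference was -0.12 at 2-d and -0.31 at 4-wk (rounded). The list means were higher at 4-wk than at 2-d on both diets. The part of these cells in the other results was not tested. With B25 included, 16 markers were lower at an unadjusted p under 0.05, and without A01, A09 and A24, 10 were and 20 of 22 were negative. Lymphocyte markers had 11 of 15 negative (median -0.02), and sinusoidal endothelium 10 of 15 (median -0.03). At 2-d 9 lymphocyte and 5 endothelial markers were negative, and at 4-wk 13 and 14 were. The hepatocyte markers had 9 of 14 positive (median 0.01).

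**Figure D5:**
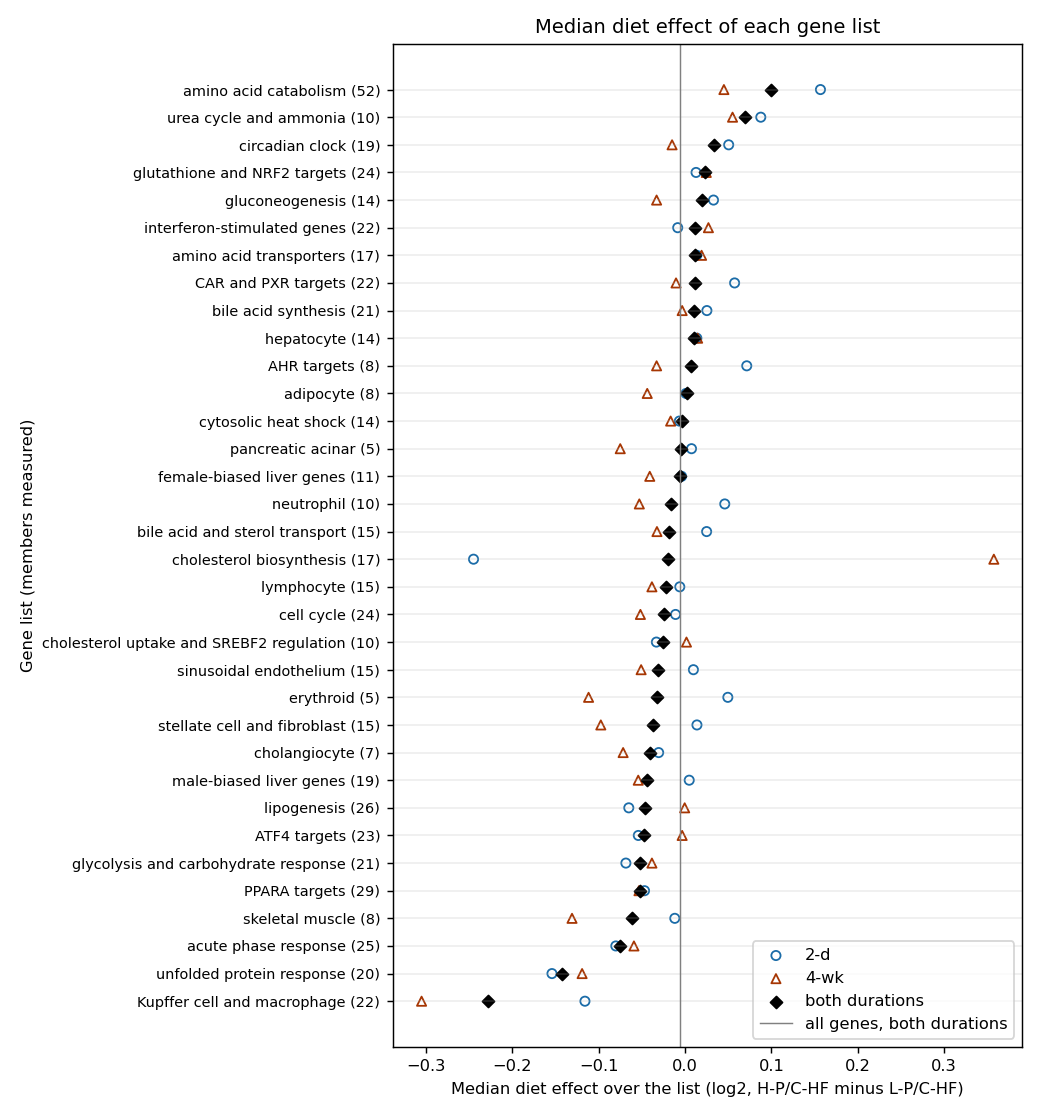
Median diet effect (log2, positive where the H-P/C-HF mice were higher) over the measured members of each of 34 gene lists, pooled and at each duration, with the median of all genes as a line. Amino acid catabolism has the highest pooled median at 0.10, the macrophage markers have the lowest at -0.23, and cholesterol biosynthesis has opposite medians at the 2 durations, -0.24 and 0.36.

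Of 25 acute phase genes 21 were negative (median -0.08, and -0.05 without A01, A09 and A24), led by Itih4 (-0.13) and Hp (-0.09). The list mean spread widely at 2-d, from 11.04 through a median of 11.54 to 13.61 in L-P/C-HF mice. In H-P/C-HF mice of 2-d it ran from 11.38 through 11.64 to 12.74, so that the median was not lower. At 4-wk the medians were 11.32 and 11.29. Of 22 CAR and PXR targets 13 were positive, with 14 at 2-d and 11 at 4-wk, and 7 had the same sign at both. The glutathione transferases Gsta2 (0.74) and Gstt3 (0.37) and the carrier Slco1a4 (0.25) were higher at an unadjusted p under 0.05 (2% of all genes were). The median of these targets, 0.01, turned sign with B25 included, without A01, A09 and A24 and with array weights. Of 24 glutathione and NRF2 genes 16 were positive (median 0.02), with 12 at 2-d and 15 at 4-wk, and 11 had the same sign at both. By unadjusted p under 0.05, 3 were higher and 1 was lower (2% and 3.08% of all genes were). These were Gstt2 (0.28), Gstt3 and Gsta4 (0.25) against Hmox1, the heme oxygenase (-0.20). Of 15 genes of bile acid and sterol transport 10 were negative (median -0.02), but 10 were positive at 2-d and 12 negative at 4-wk. Of 10 genes of cholesterol uptake 7 were negative (median -0.03), with 7 at 2-d and 5 at 4-wk. The clock genes had 13 of 19 positive (median 0.03, Dbp 0.21), but 15 at 2-d and 8 at 4-wk. The interferon-stimulated genes had 13 of 22 positive (median 0.01, Ifit1 0.29), with 10 at 2-d and 14 at 4-wk. The male-biased genes had 12 of 19 negative (median -0.04, Igf1 0.10), with 9 at 2-d and 15 at 4-wk. The cell cycle genes had 18 of 24 negative (median -0.02, Ccnd1 -0.26), with 16 at 2-d and 18 at 4-wk. Cytosolic heat shock genes, with 7 of 14 positive, included Hspa1b (-0.32, with -0.60 at 2-d and -0.06 at 4-wk). The AHR targets, female-biased genes and the markers of neutrophils, adipocytes, cholangiocytes, erythroid, muscle and acinar cells had medians between -0.06 and 0.01. The 8 measured muscle markers were all negative (median -0.06), though 4 of them were at 2-d and 8 at 4-wk. No member of these lists passed over all genes in limma.

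No probe set had a diet effect that differed between the durations after adjustment (limma, adjusted p under 0.05), and 733 of 45037 (1.63%) did at an unadjusted p under 0.05. Among the 20 probe sets that changed there were 4 of these, 2 of Slc7a2, that of Aldh1l1 and 1436168_at. Of the 10 that rose 9 had the larger difference at 2-d, and of the 10 that fell 6 did. At 2-d alone 6 probe sets passed in limma and at 4-wk alone 0 did (0.0133% and 0% of those tested), with 1586 and 1243 at an unadjusted p under 0.05. The counts of 1586 and 1243 are also under the share of 0.05 expected without a diet effect.

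Just outside the threshold were Aldh1b1, a mitochondrial aldehyde dehydrogenase (0.43, adjusted p = 0.0540 from limma), Got1, a further Slc7a2 probe set, Dynll1, a dynein light chain (-0.56, adjusted p = 0.0603), and Inhba, an activin subunit (-0.24, adjusted p = 0.0603). Just inside were Serpina12 and Cth, both at an adjusted p of 0.0476, so that the border between these genes rests on small differences in p.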

How the data were processed

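Liver RNA was hybridised to Affymetrix mouse expression arrays. The values deposited by the authors are log2 output of RMA, which corrects background, normalizes between arrays and summarises each probe set, and the log base was read from their range (3.16 to 14.81). From them, 45037 probe sets (64 controls left out) were fitted with limma 3.58.1 in R 4.3.3 (lmFit, eBayes with trend), with diet and duration as terms, two-sided. A 4-group fit gave the effects at each duration and their difference. The study itself used one-way ANOVA with Global Error Assessment, which was not used here.

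Of 45037 probe sets, 34945 carry 1 symbol, 932 several and 9160 none. For lists, each of 18193 genes was represented by its brightest probe set with 1 symbol, and 587 of 652 listed members were matched. Named are all genes that changed, up to 4 members of a list by smallest p, and Cyp7a1, Srebf2, G6pc and Pck1. Others named (Hspa5, the further members of the amino acid lists and of the unfolded protein response, glutathione and macrophage lists, and the genes just outside the threshold) were chosen after their values were seen. Members and lists were chosen with earlier results of these data known.

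The number of arrays limits the precision. On simulated data of this size, 85 of 100 probe sets shifted by 0.3 and 98 of 100 shifted by 0.5 were recovered for the diet effect over both durations, with 8 of 191 calls false. The simulated noise was normal and independent between probe sets. With 191 calls there against 20 here, the recovery and the share of false calls need not carry over to these arrays. The alternatives tried were B25 included; A01, A09 and A24 left out; array weights; median centring; cyclic loess; the brighter probe sets; the 4-group mean; no trend; no moderation; RNA quality as a covariate; the replicate number as a block; each array left out; the mean of a gene's probe sets for lists; and an unadjusted threshold of 0.001.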

Additional observations from a re-analysis of the deposited data

How the results depend on the processing

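Over both durations 20 probe sets changed, and 17 of these also did with B25 included (21 in all). The count was 85 with array weights (25 higher, 60 lower) and 64 after cyclic loess (41 higher, 23 lower), which both keep all 20, against 12 after median centring (7 higher, 5 lower) and 12 in the ordinary linear model without moderation. It was 109 at an unadjusted p under 0.001. The count for the diet effect held at both durations was 28 without A01, A09 and A24, 78 with array weights, 60 after cyclic loess and 11 without moderation. For the difference of diet effects 5 passed at an unadjusted p under 0.001. The causes of these moves were not tested. Leaving out each array in turn gave 10 to 29 probe sets for the diet effect over both durations (29 without A09), 10 to 27 that held, and 0 for the difference of diet effects in every fit. The count was 13 or less without A01, A10, A11, A12, A15, A21, B26, B29, B30, B33, B34, B37, B39, B42 or B44.

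The replicate numbers do not pair the mice: samples of the same number correlated at a median of -0.02 in their deviations from the group means (22 of 69 pairs over 0.1), against 0.01 for different numbers. With the replicate number as a block 12 probe sets changed (7 higher, 5 lower), 11 of them among the 20, and Cyp7a1 had an adjusted p of 0.0879 in limma. In the alternatives other than leaving out an array, Slc7a2 (smallest p), Agxt, Oat, Ivd, Ero1b and Cyp2d40 and the smaller-p Col27a1 probe set passed in all 11 fits, while Cth passed in 5, Serpina12, Aldh1l1 and Plin2 in 7, Ces2g in 8 and Cyp7a1 in 9. Single genes reversed with array weights only, Cela2a to -0.0013 and Pck1 to -0.0056. Gpd1 passed without A01, A09 and A24, with array weights and after cyclic loess, and so did Khk, and Slc38a4 passed in 5 alternatives.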
